A study of Mus musculus with 8 samples.

Results

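Round spermatids without the PIWI protein MIWI were compared with round spermatids that carry 1 wild-type Miwi allele. The comparison holds 4 of the 8 arrays of the study, namely replicates 1 and 2 titled MIWI -/- and replicates 1 and 2 titled MIWI +/-. MIWI -/- animals had only null alleles of Miwi (gene symbol Piwil1), and MIWI +/- animals had a null and a wild-type allele, so the control group also carries the null allele and no wild-type array enters. The other arrays are MIWI +/KI and MIWI -/KI, which carry a knock-in allele that the labels do not describe, with 2 arrays each. All mice were adult C57BL/6, and total RNA came from round spermatids that had been separated on a gradient of bovine serum albumin and pooled over the fractions of that cell type. How many animals stand behind an array, and how the null allele was made, is not stated in the labels. The question was what happens to spermatid transcripts when MIWI is lost.

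Round spermatids are the early haploid cells of the male germ line. Within them a transcription programme for late spermatid life is switched on, an acrosome and a flagellum are built, and many messages are stored for translation after the nucleus has been compacted. MIWI binds piRNAs, small RNAs that guide PIWI proteins to complementary transcripts, and male mice without it are sterile because their germ cells stop developing as round spermatids.

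Of 19938 genes measured, 1222 (6.13%) differed between the genotypes at an adjusted p under 0.05, the threshold used throughout. Values are microarray intensities, a fold change is the mean log2 intensity in MIWI -/- minus that in MIWI +/-, and each adjusted p comes from a linear model in limma with Benjamini-Hochberg adjustment. A gene is said to have risen or fallen only where it passed. The 703 falls (3.53% of genes) were deeper than the 519 rises (2.6%), with a median log2 fold change of -1.22 against 0.94. Changes of at least 2-fold numbered 688 (3.45% of genes), 475 of them falls. Falls of at least 4-fold, 8-fold and 16-fold numbered 146, 49 and 13, and rises of those sizes 20, 2 and 0. In none of the 1222 genes did an array of one genotype reach into the range of the other. At 2 arrays per genotype a call nearly requires this, so it adds no support to the calls. Null replicates 1 and 2 departed from the MIWI +/- mean by medians of -1.25 and -1.21 for the falls and 0.86 and 0.99 for the rises. The calls rest on both arrays, so the selection favours like medians, and equal weight of the arrays is not shown. Calls were concentrated in bright genes, with 315 rises and 412 falls among the 4985 brightest genes and 4 and 21 among the 4985 dimmest. The share called over all genes, set beside gene lists below, includes the dim genes. No list was matched to it for brightness, so a higher share in a list may follow its brightness, which was not tested. In these bulk samples, fewer cells of a type and less RNA per cell cannot be told apart.

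**Figure D1:**
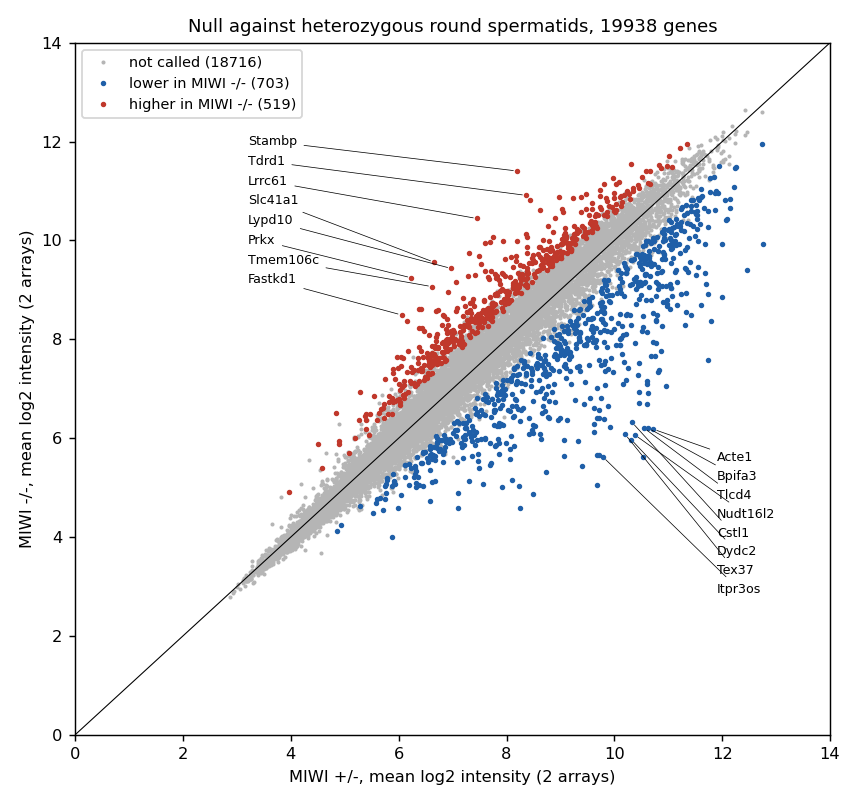
Mean log2 intensity of each of 19938 genes in the MIWI +/- arrays (x axis, n = 2) and in the MIWI -/- arrays (y axis, n = 2), with the line of equal values. The 703 genes called lower (blue) reach further from the line than the 519 called higher (red), and the 8 named genes with the largest change on each side are labelled.

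The MIWI +/- arrays correlated with r = 0.989 across transcript clusters and the MIWI -/- arrays with r = 0.984. Each MIWI -/- array correlated more with an array of another genotype than with its own replicate (0.9836): replicate 1 with MIWI -/KI replicate 1 (r = 0.9885), and replicate 2 with that array (0.9872) and the MIWI +/KI arrays (0.9855 and 0.9858). MIWI -/KI replicate 2 stood furthest apart, at 0.9700 with its own replicate and 0.9598 to 0.9631 with the MIWI +/- and MIWI +/KI arrays. Without MIWI -/- replicate 2, 582 genes were called, 563 of them calls of the full fit in the same direction. Counts moved by over 1.5 times with other arrays too. Leaving out the MIWI +/- arrays in turn gave 413 and 375 calls, leaving out the MIWI +/KI arrays 656 and 654, and leaving out the MIWI -/KI arrays, which enter through the shared estimate of spread, 2032 and 2043. Of the 1222 calls, 348 held in the same direction in each of 19 alternative settings, which include leaving out each array, and 278 of these were falls and 70 rises. They are called stable below.

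The labelled cell type was checked against its markers. The round spermatid markers Acrv1, Spaca1, Izumo1, Tssk1 and Catsper1 were bright in every array and did not pass the test. Of 8 such markers 3 were called. Tnp1 and Prm1 fell, and Acr rose from 1484 and 1431 to 2347 and 2633 (fold change 0.77, SE 0.14), a call that was not stable. The intensity summed over the 8 was 17733 and 16496 in MIWI +/- and 11795 and 11453 in MIWI -/-. The drop was largely in Tnp1 and Prm1. Intensities on such arrays do not reach 0, so a reading alone does not show that another cell type was present. The 6 defining Sertoli cell markers read between 36.5 and 729, and the 2 of endothelium between 40.1 and 76.9. Of 31 spermatocyte markers 1 rose and 2 fell, the rise being lost without either MIWI +/- array and both falls without MIWI +/- replicate 1 or MIWI -/- replicate 2, with 1 fall left without MIWI +/- replicate 2 or either MIWI +/KI array, and with summed intensities of 22716 and 21279 against 22598 and 19187. Of 23 spermatogonia markers 1 rose, a call lost without any 1 array of MIWI +/-, MIWI -/- or MIWI +/KI (2413 and 2357 against 2433 and 2431), and none of 14 Leydig cell markers was called (1628 and 1572 against 2132 and 1593). Sertoli cell markers were lower in both null arrays, at 3301 and 2725 against 4599 and 4296, and Cst12, Aard and Tsx of the 26 fell. None of those 3 held without either MIWI +/- array, either MIWI +/KI array or MIWI -/- replicate 2. Of 17 macrophage and blood markers the sum was lower (2202 and 2185 against 3330 and 3097), while the median log2 fold change was -0.03 and the 4 defining macrophage markers summed to 295 and 329 against 319 and 298. There were falls in Aif1, Alas2 and H2-Aa, a count that became 1 or 0 when any 1 array of MIWI +/-, MIWI -/- or MIWI +/KI was left out. Among 20 peritubular, vascular and stromal markers (2370 and 2936 against 4389 and 4173) the fall was in Actg2, a smooth muscle actin, and Acta2 rose, a call lost without any 1 array of MIWI +/-, MIWI -/- or MIWI +/KI. The part of these other cells in the differences described here was not tested.

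Promoters are shown for the 3 largest named falls and for 2 of the 4 largest named rises, those with an entry in the promoter table, because members of the cAMP response element family and RFX factors drive spermatid transcription, and their sites can be looked for in these letters. Each is the 250 bases before the RefSeq transcription start in GRCm38.p6, 5′ to 3′ on the gene's strand, in lower case, with capitals for TGACG, the first part of the cAMP response element, or its reverse complement. The falls are Acte1 at chr7:143866639-143866888 (plus strand), Bpifa3 at chr2:154130086-154130335 (plus) and Tlcd4 at chr3:121263341-121263590 (minus). Tlcd4 has 2 listed starts, and only the first is shown. The rises are Stambp at chr6:83572505-83572754 (minus) and Slc41a1 at chr1:131827762-131828011 (plus).
Acte1: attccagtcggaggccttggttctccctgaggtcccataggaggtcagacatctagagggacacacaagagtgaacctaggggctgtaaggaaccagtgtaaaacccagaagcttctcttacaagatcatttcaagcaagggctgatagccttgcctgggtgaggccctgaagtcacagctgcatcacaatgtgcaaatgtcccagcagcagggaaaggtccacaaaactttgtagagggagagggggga
Bpifa3: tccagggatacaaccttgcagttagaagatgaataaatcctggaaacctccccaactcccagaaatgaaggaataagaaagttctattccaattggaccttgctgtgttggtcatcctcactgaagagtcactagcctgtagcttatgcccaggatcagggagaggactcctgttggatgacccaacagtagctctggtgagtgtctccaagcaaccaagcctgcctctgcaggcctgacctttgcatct
Tlcd4: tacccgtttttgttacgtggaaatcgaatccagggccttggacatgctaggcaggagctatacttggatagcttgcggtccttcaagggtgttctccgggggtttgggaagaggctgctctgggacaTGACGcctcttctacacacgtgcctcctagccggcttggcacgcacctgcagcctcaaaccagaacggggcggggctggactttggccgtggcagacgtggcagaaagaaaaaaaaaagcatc
Stambp: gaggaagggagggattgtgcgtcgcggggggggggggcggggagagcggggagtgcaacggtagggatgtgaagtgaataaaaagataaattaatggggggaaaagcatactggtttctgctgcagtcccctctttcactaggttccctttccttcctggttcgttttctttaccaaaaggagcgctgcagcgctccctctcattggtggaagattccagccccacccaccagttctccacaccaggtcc
Slc41a1: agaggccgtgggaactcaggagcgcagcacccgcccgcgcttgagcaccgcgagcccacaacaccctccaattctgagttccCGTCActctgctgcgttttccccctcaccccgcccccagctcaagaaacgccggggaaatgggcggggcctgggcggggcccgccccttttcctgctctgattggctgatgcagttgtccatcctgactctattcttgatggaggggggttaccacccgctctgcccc
Of these 5, TGACG was found in Tlcd4 at position -123 and, on the opposite strand, in Slc41a1 at position -168, counted from the start. None of the 5 held the full element TGACGTCA, which contains TGACG on both strands.

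Over all genes, a promoter (here 250 bases before to 50 after the start) could be matched for 15562 of 19938 genes and was searched on both strands. A gene with several starts counted if any of them held the letters. TGACGTCA was in 2.72% of all promoters, in 28 of 586 of genes that fell (4.78%) and in 16 of 426 of genes that rose (3.76%). Among the 35 matched genes that fell by at least 8-fold, the full element was in 0, which says little at a share of 2.72% over all promoters. TGACG was in 5 of these 35 (14.3%). TGACG was in 28% of all promoters, 29.9% of those of falls and 38.3% of those of rises. The 9 letters GTTGCCATG, an RFX type site, were in 0.797%, 0.853% and 0.939%, and the TATA box letters TATAAA in 13.6%, 11.1% and 8.22%. These shares are descriptions of letters in a window and no test was made of them.

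Among the deepest falls, the bright transcripts of Acte1 and Bpifa3 went down to about the median level of an array, which lay between 66.6 and 71.8. Others ended over that level, such as Mical3, or under it, such as Itpr3os. Acte1, a testis actin, read 1592 and 1796 in the MIWI +/- arrays and 72.6 and 72.5 in the MIWI -/- arrays, a 23.3-fold fall. Bpifa3, of the BPI fold family, read 1828 and 1376 against 73.0 and 74.0. The arrays of a genotype lay close together in both genes while the genotypes were far apart. Noxred1 read 1401 and 1409 against 104 and 107 and fell by 3.74 on the log2 scale (SE 0.16, adjusted p = 2.86e-05). Mical3, a flavin enzyme that acts on actin, read 1881 and 1709 against 167 and 159 (fold change -3.46, SE 0.14). Fscn3, the fascin of the testis that bundles actin, read 1821 and 1361 against 109 and 135 (-3.70, SE 0.26). Both Fscn3 arrays of the null lay far under both of the heterozygote.

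Other falls among the 30 largest were in metabolic enzymes of differing brightness. Agpat2, an acyltransferase on the way to phospholipids and triglycerides, read 1529 and 1302 against 111 and 133 (fold change -3.54, SE 0.16). Acsl5, which activates long-chain fatty acids, read 497 and 582 against 53.8 and 46.2 (-3.43, SE 0.24). Oxct2a, a testis enzyme of ketone body use with a close relative in the genome, read 4229 and 3973 against 470 and 462 (-3.14, SE 0.14). These were falls of 11.6-fold, 10.8-fold and 8.79-fold. Nqo2, a quinone reductase, read 784 and 791 against 68.2 and 71.7 (-3.49, SE 0.15). Mlkl, the protein that carries out necroptosis, read 274 and 330 against 30.6 and 34.9 (-3.20, SE 0.18).

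Further members of the 30 were Efcab1, an EF-hand protein (fold change -3.62), Tppp2, a tubulin binding protein of sperm (-3.39), the small GTPase gene Arl9 (-3.33), Trp53tg5 (-3.46) and Hmgb1-rs17 (-3.51), a relative of the chromatin protein gene Hmgb1 whose probes may not tell it from close copies. Tnp1 spread most between its null arrays, at 451 and 244. All 30 falls were stable in the sense given above.

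The largest rises started from differing levels in MIWI +/-. Stambp, a deubiquitinase of endosomes, read 276 and 311 in MIWI +/- and 2627 and 2798 in MIWI -/-. Tmem106c read 97.8 and 98.7 against 542 and 530 (fold change 2.45, SE 0.14). Slc41a1, a magnesium transporter, read 88.6 and 114 against 547 and 1043, so its null arrays differed from each other far more than those of Stambp and Tmem106c.

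Brca2, Stau1 and Morc1 were among the 30 largest rises. Brca2, a gene of DNA repair, read 193 and 176 against 728 and 742 (fold change 1.99, SE 0.20, adjusted p = 0.00116). Stau1, an RNA binding protein of mRNA transport and decay, read 303 and 280 against 981 and 1043 (1.80, SE 0.14). Morc1, needed for retrotransposon silencing in the male germ line, read 80.2 and 92.5 against 327 and 275 (1.80, SE 0.17). Null and heterozygous arrays of these 3 genes were separated by at least the size of the lower group's own level, which follows from their choice as large rises.

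Prelid1, Mtif2 and Fastkd1 encode proteins of mitochondria. Prelid1, which carries lipid into mitochondria, read 185 and 173 against 765 and 876 (fold change 2.19, SE 0.16). Mtif2, a mitochondrial translation initiation factor, read 291 and 374 against 1201 and 1057 (1.77, SE 0.22). Fastkd1, of a family that handles mitochondrial RNA, read 62.0 and 71.2 against 368 and 353 (2.44, SE 0.26). In each of them the lowest null array was over the highest MIWI +/- array by a wide margin, as the rule that chose them requires.

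The remaining large rises were of mixed kinds. Golga2, which encodes the Golgi matrix protein GM130, read 171 and 169 against 608 and 651 (fold change 1.89, SE 0.15), and the Golgi mannosidase gene Man2a2 read 227 and 203 against 995 and 1169 (2.33, SE 0.17). Mgll, the monoacylglycerol lipase, read 252 and 241 against 1017 and 1028 (2.05, SE 0.15). Both Golgi genes and the lipase showed tight pairs of arrays. Other rises were Myo1e, a class I myosin (2.03), Arhgap20 (2.00), the microtubule binding protein gene Map7d3 (1.70), Tapbpl of antigen presentation (2.19), the protease gene Asprv1 (2.23), Abitram (1.86) and Megf9 (1.78). Trh, the gene of thyrotropin-releasing hormone, read 87.8 and 79.4 against 302 and 513, and missed the threshold when MIWI +/- replicate 2 was left out (adjusted p = 0.0506). Plpp2, a lipid phosphatase, read 109 and 98.1 against 274 and 534 and missed the threshold when either MIWI +/- array was left out (adjusted p = 0.0804 and 0.107). The other 28 of the 30 rises were stable.

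**Figure D2:**
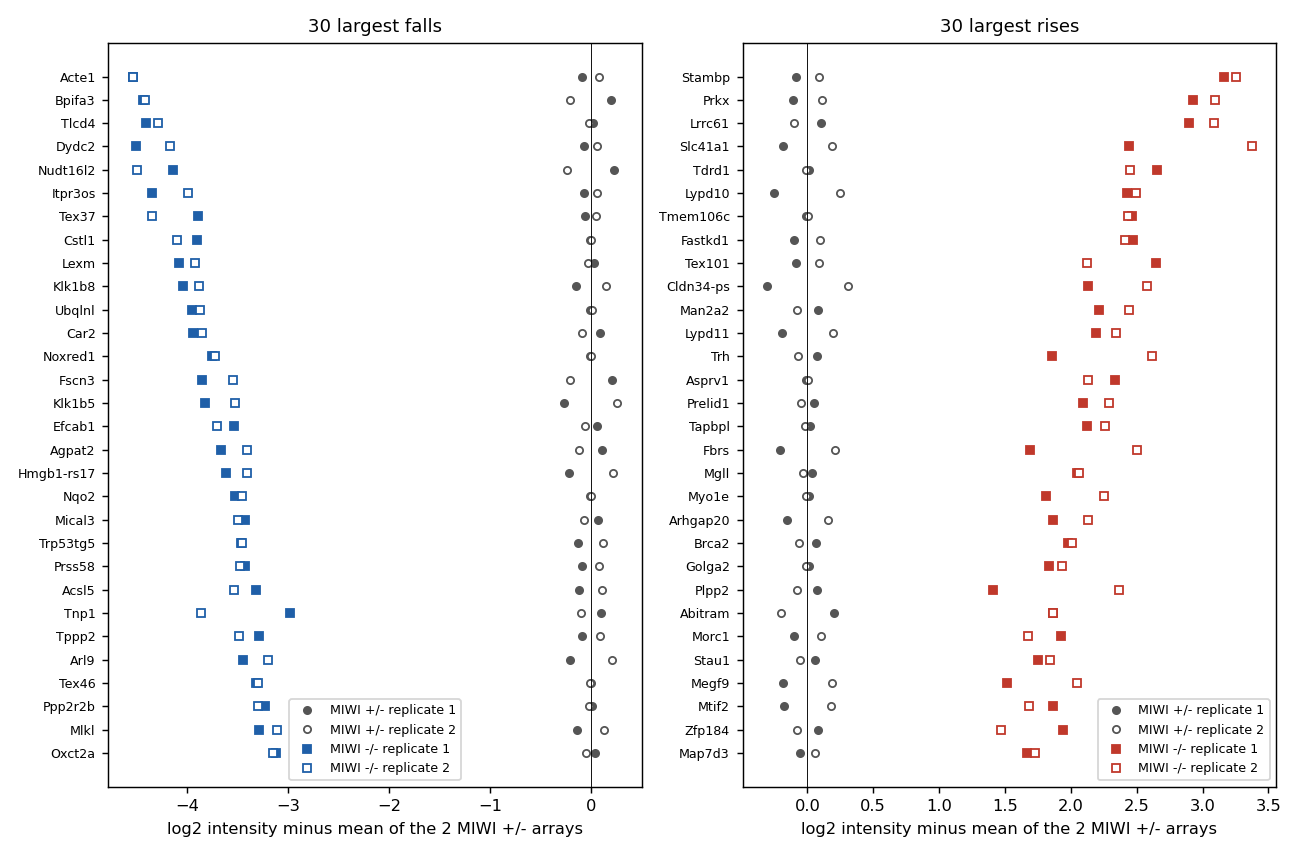
Log2 intensity of each of the 4 arrays minus the mean of the MIWI +/- arrays, for the 30 largest named falls (left) and the 30 largest named rises (right); circles are MIWI +/-, squares MIWI -/-, filled for replicate 1 and open for replicate 2. The genes were chosen among those whose arrays do not overlap, and among the falls the null arrays of Tnp1 lie visibly apart.

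The transition protein and protamine genes Tnp1, Tnp2, Prm1, Prm2 and Prm3 fell. Of 31 measured genes of chromatin packaging and histone exchange 11 fell and 1, Dot1l, rose (38.7% called, 6.13% over all genes), and the list's median was -0.10 against 0.01 over all genes. Tnp2, a transition protein gene, read 5928 and 5392 in MIWI +/- and 788 and 578 in MIWI -/- (fold change -3.07, SE 0.20). H2bl1, a testis variant of histone H2B, read 2111 and 2052 against 417 and 367 (-2.41, SE 0.14), and H2al2a, a variant of histone H2A that opens nucleosomes for transition proteins, 1058 and 1149 against 256 and 219 (-2.22, SE 0.18). In all 3, picked from the larger calls of the list, the arrays of a genotype lay close together and the genotypes far apart. Prm3 (-2.06) and the linker histone gene H1f7 (-1.81) fell too, and 9 of the 11 falls were stable, the exceptions being H2al3 (-1.50) and Cdyl (-1.31). Leaving out any 1 array left 9 to 12 falls, while the rise of Dot1l (0.89) was lost without either MIWI +/- array, either MIWI +/KI array or MIWI -/- replicate 2.

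Regulators of the haploid programme were called about as often as genes in general. Of 36 such genes, 2 fell and none rose (5.56% called, 6.13% over all genes). Fhl5, the coactivator ACT of CREM, read 1352 and 1364 against 563 and 475 (fold change -1.39, SE 0.15, adjusted p = 0.00162). Spz1, a helix-loop-helix factor of spermatogenic cells, read 4815 and 4740 against 2416 and 1915 (-1.15, SE 0.13). Both falls were stable, and the list's median was 0.05.

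Of 42 measured genes that shape the head and couple it to the tail, 14 fell and 1 rose (35.7% called), with a median of -0.22. Spem1, whose protein is needed to shed cytoplasm from the sperm head, read 2119 and 1659 against 218 and 217 (fold change -3.11, SE 0.24), and its neighbour in name Spem2 read 2630 and 2435 against 275 and 359 (-3.01, SE 0.19). The actin-related gene Actl9 read 1986 and 1962 against 769 and 806 (-1.33, SE 0.12), and Oaz3, a testis antizyme, fell by 1.49 on the log2 scale. These 4 falls and that of Hook1, a microtubule linker of the manchette (-0.94), were stable. Ccdc42 was the member that rose, from 330 and 383 to 689 and 940. The 14 falls became 5 without either MIWI +/- array and 9 without either MIWI +/KI array or MIWI -/- replicate 2. The rise of Ccdc42 was lost without either MIWI +/- array or MIWI -/- replicate 2.

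Called genes of the axoneme, the microtubule core of the flagellum, were mostly rises. Of 48 genes of axonemal dyneins, their assembly factors and radial spokes 10 rose and none fell, against rises in 2.6% of all genes, with a median of 0.31. Dnah2, a dynein heavy chain, read 478 and 456 against 1068 and 1252 (fold change 1.31, SE 0.14, adjusted p = 0.00151), and Dnah10 read 431 and 392 against 779 and 1038 (1.13, SE 0.17). Dnah1, whose loss causes flagellar defects, read 423 and 387 against 722 and 833 (0.94, SE 0.15). Dnah7a, Dnah7b and Dnah7c rose by 0.96, 0.99 and 0.92, but they are near-identical genes and their probes may not tell them apart. Of the 10 rises, Dnah2 alone was stable: there was 1 without either MIWI +/- array, 6 without MIWI -/- replicate 1, 3 without replicate 2 and 5 without either MIWI +/KI array.

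The Cfap and tektin genes, which also encode axonemal proteins, had 7 rises and 1 fall among 34, with a median of 0.35. That is 23.5% called, against 6.13% over all genes. Cfap54, of the central apparatus, read 708 and 717 against 1633 and 2329 (fold change 1.45, SE 0.19), and Cfap65 read 1020 and 1011 against 1721 and 2301 (0.97, SE 0.15). The fall was in Cfap126, the gene Flattop, from 1179 and 1222 to 745 and 639. Cfap54 was the stable one of these genes: 1 rise was left without either MIWI +/- array and 2 without either MIWI +/KI array or MIWI -/- replicate 2, and the fall was lost without any of these 5. Genes of intraflagellar transport, which carries parts into the growing flagellum, and of the BBSome had 5 rises and 1 fall among 34. With 17.6% called and a median of 0.23, they were led by Ttc26 (416 and 412 against 854 and 737) and Ift88 (690 and 708 against 1114 and 1138). None of these 6 calls held without any 1 array of MIWI +/-, MIWI -/- or MIWI +/KI. Kinesin genes were called about as often as genes in general (7.32% of 41), and Kif2c (-1.84), Kif1a (-1.41) and Kif5c (-0.92) fell. Kif2c, a microtubule depolymerase, was stable at 2765 and 2654 against 807 and 712. The 3 falls became 1 without MIWI +/- replicate 2.

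The Tex and Spata families, which were named for expression in the testis and share no function, had more falls than rises. Of 35 Tex genes 11 fell and 2 rose (37.1% called, median -0.29). Tex46 read 842 and 838 against 83.9 and 85.3 (fold change -3.31, SE 0.17), Tex44 read 1142 and 1304 against 153 and 189 (-2.84, SE 0.16), and Tex55 read 1096 and 1191 against 121 and 156 (-3.06, SE 0.18). Of these falls 7 were stable, and 7 were left without MIWI +/- replicate 2. Tex101 and Tex14 were the members that rose, and the rise of Tex14 (0.64) was lost when any 1 array of MIWI +/-, MIWI -/- or MIWI +/KI was left out. Of 41 Spata and Spag genes 9 fell and 1 rose (24.4% called, median -0.13). Spata32 read 815 and 908 against 96.0 and 132 (-2.93, SE 0.23), Spata18, of mitochondrial quality control, 4325 and 3881 against 902 and 1050 (-2.07, SE 0.13) and Spata3 2580 and 2570 against 626 and 756 (-1.90, SE 0.13). The 9 falls became 4 without either MIWI +/- array, and the rise, of Spag6l (0.43), was lost when any 1 array of MIWI +/-, MIWI -/- or MIWI +/KI was left out. Of 130 Ccdc genes 5 rose and 7 fell (9.23% called, median 0.01), and Ccdc187 (-2.28), Ccdc91 (-1.60) and Ccdc54 (-1.26) were the stable ones. These 5 and 7 became 0 and 4 without MIWI +/- replicate 1, 0 and 3 without replicate 2, 10 and 12 without either MIWI -/KI array, 4 and 4 without MIWI -/- replicate 1, 0 and 5 without replicate 2, and 2 and 6 without either MIWI +/KI array.

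Genes of secreted proteases and of the Ly6 and BPI fold families had calls in both directions. Among 177 genes of secreted proteases and protease inhibitors 12 fell and 2 rose, and 9 of the falls were stable. The 7.91% called is near the 6.13% over all genes, and the list's median was -0.02. This list was drawn up by gene symbol and not by secretion from sperm. Klk1b5, a kallikrein, read 255 and 367 against 21.5 and 26.5 (fold change -3.68, SE 0.23), with near-identical kallikrein genes that its probes may also read. Prss58 read 1473 and 1659 against 145 and 140 (-3.46, SE 0.20), and Prss52 read 1461 and 1927 against 241 and 248 (-2.78, SE 0.20). The rises of Serpinb9d (0.93) and Prss38 (0.79) were not stable and were lost when any 1 array of MIWI +/-, MIWI -/- or MIWI +/KI was left out. In the Ly6 and BPI fold families 3 of 53 rose and 3 fell (11.3% called, 6.13% over all genes). Bpifa6 fell beside Bpifa3 (127 and 149 against 21.2 and 27.5), while Lypd10 (106 and 149 against 675 and 708), Lypd11 (181 and 237 against 949 and 1050) and Tex101 (326 and 368 against 2167 and 1511) rose.

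Of 69 genes for the sperm surface and egg binding 5 rose and 7 fell (17.4% called, median -0.06). Prss37, needed for sperm migration and egg binding, read 1382 and 1417 against 441 and 462 (fold change -1.63, SE 0.13), and Adam21 read 635 and 666 against 249 and 248 (-1.39, SE 0.17). Calr3, an endoplasmic reticulum chaperone for sperm surface proteins, read 466 and 472 against 205 and 200 (-1.21, SE 0.17) and lost its call without either MIWI +/- array. Hyal3, a hyaluronidase gene, rose (1.19). Without either MIWI +/- array 1 rise and 3 falls were left, without either MIWI +/KI array 1 and 4, and without MIWI -/- replicate 2, 1 and 5. Among 30 sperm ion channel, pump and cAMP genes 13.3% were called, against 6.13% over all genes, a share not matched for brightness. Car2 (1649 and 1459 against 101 and 107), Atp1a4 (4272 and 4220 against 1614 and 2024) and Adcy10 (2187 and 2040 against 1296 and 1366) fell and Slc26a8 rose (0.57). The latter pair were not stable. Without any 1 array of MIWI +/-, MIWI -/- or MIWI +/KI, 2 falls and no rise were left.

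Signalling enzymes changed in both directions. Of 187 genes of kinases, protein kinase A and phosphatase subunits 14 fell and 9 rose (12.3% called, median 0.08). Ppp2r2b, a regulatory subunit of protein phosphatase 2A, read 825 and 806 against 87.0 and 82.8 (fold change -3.26, SE 0.14), and Ppp2r5a, another, read 492 and 469 against 101 and 111 (-2.18, SE 0.20). Prkar2a, which holds protein kinase A inactive, read 1578 and 1257 against 156 and 214 (-2.95, SE 0.19), while Prkx, a kinase related to its catalytic subunit, read 69.6 and 81.3 against 572 and 643 (3.01, SE 0.20). Those 4 were stable, as were 8 of the 14 falls and 1 of the 9 rises in all. Without MIWI +/- replicates 1 and 2 there were 8 and 9 falls and 2 and 1 rises. Rises numbered 3 without either MIWI +/KI array, 2 without MIWI -/- replicate 2, and 18 and 19 without MIWI -/KI replicates 1 and 2.

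Of 390 ubiquitin enzymes and adaptors 31 fell and 15 rose (11.8% called, median 0.03). Ubqlnl, a ubiquilin-like gene, read 1982 and 2009 against 129 and 136 (fold change -3.92, SE 0.14), and Ubqln5 read 1144 and 1063 against 222 and 250 (-2.23, SE 0.18). Usp50 read 2462 and 2674 against 345 and 410 (-2.77, SE 0.15), and Rnf133, a ubiquitin ligase of the spermatid endoplasmic reticulum, 2228 and 2587 against 497 and 469 (-2.32, SE 0.14). Against these falls stood the rise of Stambp. Of the falls 14 and of the rises 3 were stable. Falls numbered 16 and 14 without MIWI +/- replicates 1 and 2 and 20 without MIWI -/- replicate 2, and rises 3 without either MIWI +/- array, 5 without MIWI -/- replicate 2, 8 without either MIWI +/KI array and 29 and 28 without MIWI -/KI replicates 1 and 2.

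Of 116 heat shock and endoplasmic reticulum folding genes 12 fell and 3 rose (12.9% called, median 0.03). Herpud1, which helps degrade misfolded proteins of the endoplasmic reticulum, read 1923 and 1579 against 237 and 249 (fold change -2.85, SE 0.18), Dnajb8 2565 and 2547 against 467 and 510 (-2.39, SE 0.21) and the spermatid chaperone gene Hspa1l 2663 and 2613 against 586 and 748 (-1.99, SE 0.15). In the same compartment Dnajc3 rose, from 646 and 685 to 1946 and 1830 (1.50, SE 0.13), as did Edem1 (1.44). These 5 were stable. The 12 falls became 4 and 3 without MIWI +/- replicates 1 and 2 and 6 without MIWI -/- replicate 2, and the third rise, of Calr (0.53), was lost without any 1 array of MIWI +/-, MIWI -/- or MIWI +/KI. Without either MIWI -/KI array 7 of the list rose.

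Components of the piRNA pathway rose where they were called, apart from Piwil1 itself. Piwil1 read 389 and 371 in MIWI +/- and 196 and 151 in MIWI -/- (fold change -1.14, SE 0.17, adjusted p = 0.00771), a call that ended when either MIWI +/- array was left out (adjusted p = 0.0850 and 0.0727). The labels do not state where its probes lie relative to the null allele, so this does not check them. Among 31 genes of Tudor domain proteins and the piRNA pathway 5 rose and Piwil1 was the 1 that fell (median 0.09). That is 19.4% called, against 6.13% over all genes. The rise of Piwil2 is the same call as the 1 rise among the spermatocyte markers. Tdrd1, a scaffold of PIWI proteins, read 332 and 326 against 2067 and 1795, and it was stable with Morc1. Piwil2, the gene of the PIWI protein MILI, read 549 and 506 against 1099 and 1004 (0.99, SE 0.14), Henmt1, which methylates piRNA ends, 454 and 421 against 857 and 734 (0.86, SE 0.15) and the helicase gene Tdrd9 603 and 563 against 897 and 888 (0.61, SE 0.13). The 5 rises became 2 without either MIWI +/- array, and 3 without MIWI -/- replicate 1 or either MIWI +/KI array.

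Among 95 genes of mRNA deadenylation, decay and translation 6 fell and 4 rose (10.5% called, median 0.11). Eif4h, which assists the helicase of translation initiation, was the stable one, at 2265 and 1802 against 451 and 441 (fold change -2.18, SE 0.16). Eif4a2, the helicase itself, read 840 and 860 against 364 and 222 (-1.58, SE 0.27), and Cpeb3, which binds 3′ ends of messages, 441 and 496 against 141 and 194 (-1.50, SE 0.20). The deadenylase gene Cnot8 (0.78) and Cnot1 (0.53) rose. When the MIWI +/- arrays were left out in turn there were 2 and 1 falls and no rise, with the MIWI -/- arrays 3 and 3 falls and 2 and 0 rises, and with either MIWI +/KI array 1 rise. Without either MIWI -/KI array 8 rose.

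Zinc finger genes of the Zfp family were called about as often as genes in general, and mostly upward. Of 345, 17 rose and 2 fell, which is 5.51% called, with a median of 0.07. Zfp184 read 93.6 and 83.8 against 340 and 246 (fold change 1.71, SE 0.19) and Zfp334 read 70.3 and 65.3 against 190 and 206 (1.55, SE 0.15). Zfp706, a small and bright member, fell from 1776 and 1722 to 689 and 470 (-1.62, SE 0.20). All 3 were stable. The 17 rises were 4 and 7 when the MIWI +/- arrays were left out in turn, 10 without either MIWI +/KI array, 8 without MIWI -/- replicate 2 and 36 without either MIWI -/KI array.

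**Figure D3:**
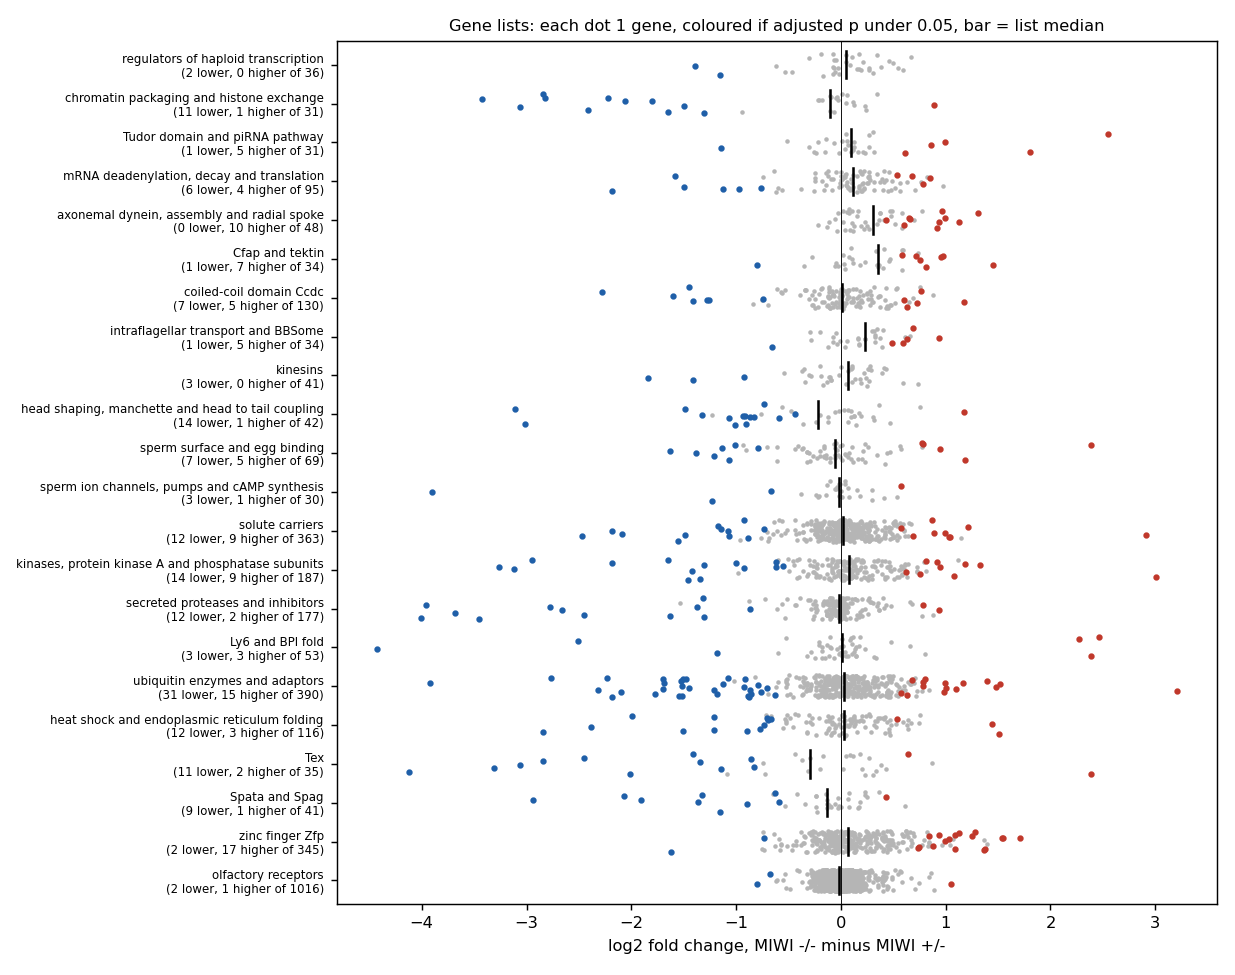
Log2 fold change of every measured gene (dots) of 22 gene lists, MIWI -/- minus MIWI +/-, coloured where the adjusted p was under 0.05 and grey otherwise, with a bar at each list's median. Most genes are grey in every list. Blue dots outnumber red in chromatin packaging (11 against 1 of 31), head shaping (14 against 1 of 42) and the Tex family (11 against 2 of 35), and among axonemal dyneins the coloured dots are red (10 of 48).

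The knock-in genotypes gave the same contrast, without against with a wild-type allele, in arrays that the null comparison does not use, although both share the model's estimate of spread. In MIWI -/KI against MIWI +/KI, 485 genes were called (2.43%), 227 higher (1.14%) and 258 lower (1.29%). Of the 703 falls in MIWI -/-, 225 (32%) also fell there, which is 87.2% of the falls of the knock-in pair, and none rose. Of the 519 rises, 129 (24.9%) also rose there, which is 56.8% of its rises, and 1 fell. By sign alone, 628 of the falls (89.3%) and 435 of the rises (83.8%) went the same way, where 54.9% of all genes were negative and 45.1% positive. The medians in the knock-in pair were -0.55 for the falls and 0.48 for the rises. Selection of these genes by the null comparison favours smaller values in the knock-in pair. These shared counts moved when 1 array was left out, by like amounts for either array of MIWI +/KI or of MIWI +/-. Each such fit leaves 1 array in a genotype, and the counts depend on the threshold. Shared falls and rises numbered 36 and 6 without MIWI +/KI replicate 1, 39 and 5 without replicate 2, 122 and 28 without MIWI +/- replicate 1 and 120 and 27 without replicate 2. They numbered 375 and 389 without MIWI -/KI replicate 1, 154 and 81 without replicate 2, 200 and 74 without MIWI -/- replicate 1 and 220 and 73 without replicate 2.

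Some genes moved by the same size in both. Itpr3os, named as an antisense transcript of Itpr3, read 848 and 927 in MIWI +/- and 43.3 and 55.6 in MIWI -/-, and 1054 and 834 in MIWI +/KI and 46.2 and 48.8 in MIWI -/KI, with fold changes of -4.18 and -4.30. Klk1b5 fell by 3.68 and 3.47 on the log2 scale, and Stambp rose by 3.21 and 2.98. Fastkd1 (2.44 and 2.35), Arhgap20 (2.00 and 1.85), Mtif2 (1.77 and 1.84), Zfp184 (1.71 and 1.79) and Morc1 (1.80 and 2.20) were close as well. For most of the deepest falls the knock-in pair gave a smaller difference, as in Acte1 (-4.54 and -2.43), where MIWI +/KI stood at 783 and 705. These falls were chosen by their size in the null comparison, which alone favours a smaller difference in the other pair.

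The difference between those differences was tested gene by gene and passed for none of the 19938 (0% called, smallest adjusted p = 0.0711 in limma), while 2585 genes (13%) had an unadjusted p under 0.05. The count was 241 without MIWI -/- replicate 1, 48 without MIWI -/KI replicate 1, 55 with dim clusters left out and 590 with the mean over a gene's clusters. Genes with the smallest p were looked at after their values were seen. Tex55 had a fold change of -3.06 in MIWI -/- and of -0.62 in the knock-in pair, where it read 336 and 371 in MIWI +/KI and 211 and 249 in MIWI -/KI. Lrrc61 rose by 2.99 and had 0.76, Tex50 fell by 2.45 and had -0.44, and Fam71a fell by 1.73 and had 0.30. In these 4 genes MIWI +/KI stood between MIWI +/- and MIWI -/-. Lypd11 differed by 0.07 in the knock-in pair, where it read 858 and 853 against 792 and 1015, near its level in MIWI -/-.

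**Figure D4:**
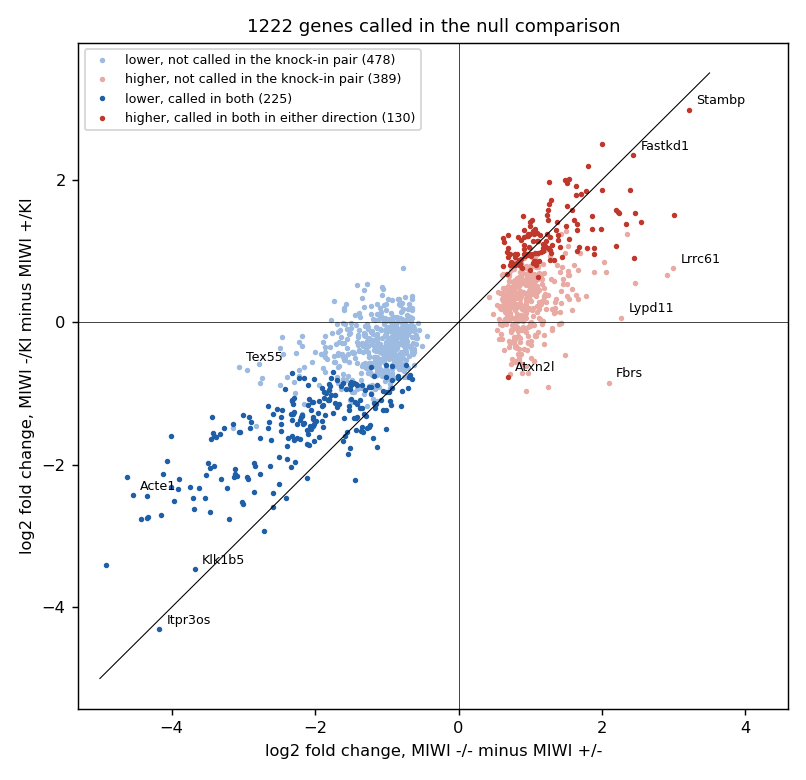
Log2 fold change of the 1222 genes called in MIWI -/- against MIWI +/- (x axis) and in MIWI -/KI against MIWI +/KI (y axis), 2 arrays per genotype, with the line of equal change. Dark dots are genes called in both; Itpr3os, Klk1b5 and Stambp lie by the line, Tex55 and Lypd11 lie far from it, closer to 0 on the y axis, and Fbrs and Atxn2l are the labelled genes of opposite sign.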

How the data were processed

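Total RNA was measured on 8 Affymetrix arrays, and the deposited values are linear intensities, 1 per transcript cluster, which the authors made with RMA, per the submitters' processing notes. The number of arrays limits the precision. Values that exceeded 100 times their cluster's median elsewhere, 8 in all and 2 in each genotype compared here, were treated as missing. Of 35512 clusters, 21789 had a single gene symbol in the platform annotation. A gene with several was read on its brightest cluster, which gave 19938 genes. Log2 intensities of all 8 arrays were fitted with a mean per genotype in limma 3.58.1 (R 4.3.3), with moderated variances, an intensity trend and adjustment over all clusters (4 residual and 3.98 prior degrees of freedom, median SE 0.17). Tests were two-sided. The titles call the arrays biological replicates, and nothing says they came from separate animals, so p-values cover only how much these preparations vary.

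Named were the 30 largest falls and rises that did not overlap, skipping uncharacterised loci, the 5 largest called changes of each of 28 lists, and cell type markers. Other list members were named after their values were seen. Genes compared and lists were chosen with earlier results of these data known. Scripts were tested on simulated data. Alternatives were other normalizations, filters, offsets, variance models, a replicate block and leaving out each array. Promoter sequences are from RefSeq (GRCm38.p6). Cross-hybridisation was not examined.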

Additional observations from a re-analysis of the deposited data

Results flagged for a closer look

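In Fbrs and Atxn2l every array of the null comparison moved one way and every array of the knock-in pair the other. Fbrs, which encodes fibrosin, read 117 and 155 in MIWI +/-, 434 and 764 in MIWI -/-, 550 and 534 in MIWI +/KI and 283 and 321 in MIWI -/KI. Its log2 difference was 2.10 for the null comparison and -0.85 for the knock-in pair, the latter not past the threshold (adjusted p = 0.175). Atxn2l, a gene related to that of the RNA binding protein ataxin 2, read 1779 and 1852 in MIWI +/-, 2582 and 3326 in MIWI -/-, 3289 and 3141 in MIWI +/KI and 1860 and 1919 in MIWI -/KI. It was called in both, at 0.69 and -0.77. The difference between the differences missed the threshold in both genes (adjusted p = 0.0721 each in limma). Among genes called in the null comparison, Atxn2l was the only one called the opposite way in the knock-in pair.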

How the results depend on the processing

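No result reversed. The 1222 calls were 952 with the 4 compared arrays alone, 1214 with the odd cells kept, 1137 after quantile normalization and 1098 after median centring. Averaging the clusters of a gene gave 2044 calls, 1029 of them rises, with 374 genes lower and 300 higher in both comparisons and 590 genes whose difference depended on the knock-in allele. Array weights gave 901 rises, with 149 genes lower and 80 higher in both, and a mean log2 intensity of at least 5 gave 55 genes whose difference depended on the allele. Leaving out 1 array moved all calls to between 375 and 2043, rises to 80 to 1045, falls to 295 to 998, changes of at least 2-fold to 371 to 728, genes lower in both to 36 to 375, genes higher in both to 5 to 389 and genes that depended on the allele to 0 to 241. The cause of these shifts was not tested. Of 153 named genes that were called, 102 kept direction and call in all 19 settings.

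With the replicate number as a block 1166 genes were called, 1084 of them shared with the fit without it. The deviations of same-numbered arrays correlated with r = 0.30 between MIWI +/- and MIWI -/-, the genotypes compared here. For the other pairs of genotypes r lay between -0.26 and 0.12. The labels name no batch, and whether same-numbered arrays were prepared together was not tested. Dim genes gave few calls, and a true change there may have been missed at 2 arrays per genotype.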

Other observations

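Loci without a descriptive name were more common among the falls (73 of 703, 10.4%) than among all genes (6.62%) or the rises (24 of 519, 4.62%). The deepest fall of the comparison was in one of them. 1700012A03Rik read 1480 and 1481 in MIWI +/- and 56.6 and 42.7 in MIWI -/- (log2 fold change -4.91, SE 0.19), Gm136 read 801 and 846 against 35.5 and 31.4 (-4.62, SE 0.18), and Gm5893 read 3226 and 3598 against 168 and 219 (-4.15, SE 0.18). All 3 had lower means in MIWI -/KI than in MIWI +/KI as well, by -3.41, -2.18 and -2.70. Among the rises, 4930465K10Rik read 379 and 405 against 1684 and 1455 (2.00, SE 0.14) and was higher by 2.51 in the knock-in pair, and Gm7982 read 147 and 169 against 795 and 935 (2.46, SE 0.24). These loci were chosen after their values were seen.

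Genes of 363 solute carriers were called about as often as all genes (5.79%, with 9 rises and 12 falls). The zinc transporter gene Slc30a4 read 1399 and 1287 against 245 and 240 (log2 fold change -2.47, SE 0.15), the cystine transporter gene Slc7a11 read 124 and 204 against 35.2 and 34.7 (-2.18, SE 0.28), and Slc37a4, which carries glucose 6-phosphate, read 190 and 169 against 40.8 and 43.3 (-2.09, SE 0.21). The rises and falls of the list were 1 and 3 without MIWI +/- replicate 1, 1 and 5 without replicate 2, 2 and 7 without either MIWI +/KI array, 10 and 7 without MIWI -/- replicate 1 and 2 and 6 without replicate 2. Of 1016 olfactory receptor genes, most of them near the array median or under it, 1 rose and 2 fell (0.295%): Olfr792 (1.05), Olfr701 (-0.80) and Olfr23 (-0.68). Without either MIWI -/KI array 6 rose, and none rose when any 1 of the other 6 arrays was left out. Neither fall held without either MIWI +/- array, either MIWI +/KI array or MIWI -/- replicate 1, and 1 fall was left without MIWI -/- replicate 2.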
